A study of Saccharomyces cerevisiae with 100 samples.

Results

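Among 95 suppressors of the MMS sensitivity of rad53Δ sml1Δ cells, 9 carried single-nucleotide variants (SNVs) at clearly different allele frequencies along chromosome XII, some near 1 and others near 0.48. The allele frequency gives, for a position in a library, the fraction of reads with the alternative base. The 9 strains were chosen by these values: each had at least 1 chromosome XII SNV at an allele frequency of 0.7 or above (high) and at least 1 at 0.40 to under 0.7 (intermediate). They are SUP7, SUP20, SUP40, SUP54, SUP74, SUP102, SUP103, SUP111 and SUP126, and are called the split strains. Of the other suppressors, 73 had only intermediate SNVs on chromosome XII (the intermediate strains), 11 had only high ones (the high strains) and 2 had none. The chromosome XII allele frequencies chose these groups and are given below as a description, without a test.

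The suppressors are separate isolates of rad53Δ sml1Δ cells that survived on plates with MMS, an agent that methylates DNA bases. Suppressors and the control strain YJT75 share the mating type (MATa), the sml1Δ::URA3 and rad53Δ::LEU2 deletions and the W303 background, and their genomic DNA was prepared from exponential cultures in YPD. Each strain was sequenced in 1 library, so no value has a replicate check and the strain is the unit of every comparison. The deposited table holds no read counts, so the number of reads behind a value is unknown.

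In a library made from a culture, an SNV that sits on every copy of a chromosome gives an allele frequency near 1, and one that sits on some copies only gives a lower value. Chromosome XII carries the ribosomal DNA (rDNA), a tandem array of ribosomal RNA genes on its right arm, in which the repeats recombine with each other and are held back from doing so by silencing proteins such as Sir2. In yeast cells with a pair of homologous chromosomes, a mitotic crossover can make the chromosome homozygous from the exchange to the chromosome end, and a gene conversion can do so over an interior stretch. The number of chromosome XII copies in these strains was not measured, and neither of these events was tested here.

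The split strains held 44 chromosome XII SNVs, each found in 1 suppressor only. Of these, 14 were high and 30 were intermediate. The high SNVs lay between 0.992 and 1.0, with 8 at 1.0, and the intermediate ones ranged between 0.422 and 0.544 (mean 0.481 ± 0.0265, SD of the 30 SNVs). No split strain had a chromosome XII value between these ranges, and the values listed below 0.40 in them reached at most 0.0112. SNVs under 0.40 in every suppressor were not kept. Values under 0.40 are therefore listed only at positions called in another suppressor, and the gap below the intermediate range is no result. The control strain YJT75 was at 0 for 43 of the 44 SNVs and at 0.0053 for the other, A1043140G of SUP126. Over all suppressors, the chromosome XII values nearest to the threshold of 0.7 were 0.645 in SUP47, an intermediate strain, and 0.852 in SUP81, a high strain.

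Positions are those of the sacCer2 assembly, and an SNV is written as the reference base, its position counted from the start of chromosome XII, and the alternative base. The arms were located from the gene names of the SNVs themselves. The last SNV in a gene of the left arm was at 138316 (SPO75, YLL005C) and the first in a gene of the right arm at 152039 (YLR001C), so the centromere lies between them. The rDNA was taken as the stretch of 450 to 490 kb, with edges set beforehand rather than located from the SNVs. The last SNV before it, at 449662, has the ribosomal RNA gene RDN25-1 as its downstream neighbour. The first SNV after it was at 490798. Only 1 SNV of any suppressor lay inside (468860, YLR154C-H), in an intermediate strain. All lengths in kb are distances between assembly positions. The length of the rDNA array in these strains was not measured, so stretches that span it may be longer or shorter in the cells.

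All 14 high SNVs of the split strains lay to the right of the rDNA, between 507694 and 1043140. Left of the rDNA the split strains had 18 SNVs, every one of them intermediate, and 8 of these were on the left arm. Right of the rDNA they had 14 high and 12 intermediate SNVs. Both kinds were thus present right of the rDNA, while only intermediate SNVs were present left of it.

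**Figure D1:**
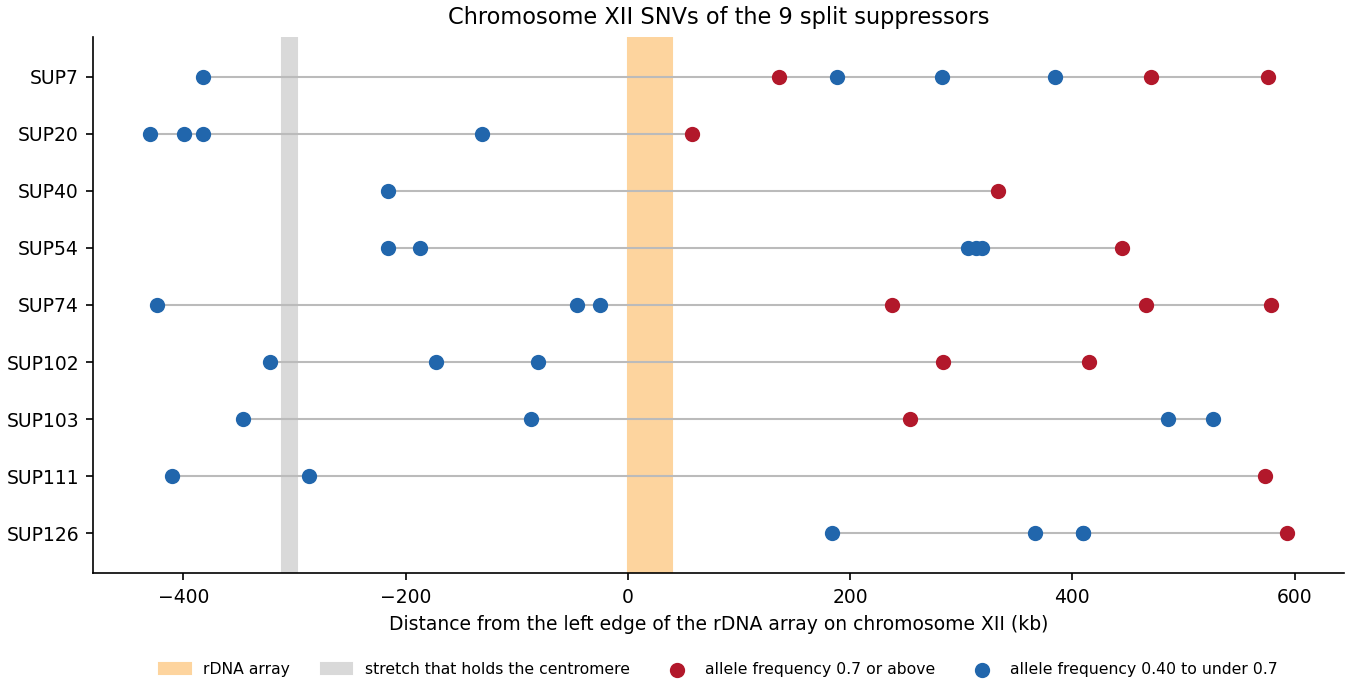
Positions of the chromosome XII SNVs in each of the 9 split strains, as the distance in kb from the left edge of the rDNA array. Red points are SNVs at 0.7 or above, blue points SNVs at 0.40 to under 0.7, the orange band is the rDNA, and the grey band is the stretch that holds the centromere. The 14 red points all lie right of the orange band, and the 18 points left of it are all blue.

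In 7 of the 9 strains the order of the SNVs gave a single change from intermediate to high between neighbouring SNVs, called a switch here. A switch is a difference in state between neighbouring SNVs, and the switch interval is the stretch between them. Whether a change point along the DNA exists in that stretch was not tested. In 5 of these 7 strains every SNV right of the rDNA was high. SUP20 had the high SNV closest to the array. Its 4 left SNVs were at 0.475 (T20229C, outside annotated genes), 0.476 (A50561T, a missense SNV in FPS1, which encodes a glycerol channel), 0.518 (G67880A, synonymous in PRP19, a splicing factor gene) and 0.472 (G319044T, missense in ALT1, an alanine transaminase gene). Its only SNV to the right, A507694G, was at 0.992 and lay outside annotated genes, 17.7 kb from the position taken as the right rDNA edge. The switch interval of SUP20 is therefore the 188.7 kb of the assembly between 319044 and 507694. It includes the whole stretch taken as the rDNA.

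SUP74 had 3 SNVs on each side of the rDNA. On the left they were at 0.454 (G25832A, missense in JLP1), 0.5 (T404458C, outside annotated genes) and 0.482 (C424503T, missense in RRN5). RRN5 encodes a subunit of the upstream activating factor of RNA polymerase I, which transcribes the rDNA repeats. On the right they were at 1.0 (C687869G, in the valine tRNA gene tV(AAC)L), 0.996 (T916311C, synonymous in SKI2, an RNA helicase gene of the Ski complex) and 1.0 (G1028386T, outside annotated genes). The switch lies within the 263.4 kb between RRN5 and the tRNA gene. The last of the 3 high SNVs lay 35.3 kb from the last SNV that any suppressor had on the chromosome (1063668). The state of the arm between the 3 high SNVs was not seen.

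SUP102 had intermediate SNVs at 0.501 (A127534G, missense in SOF1, of the machinery that processes ribosomal RNA), 0.501 (T277502C, missense in RGR1, a Mediator subunit gene) and 0.484 (G369018T, missense in AHP1, a thiol peroxidase gene). Its high SNVs were at 1.0 (A733544T, missense in MET17, an enzyme of sulfur amino acid synthesis) and 0.998 (A865312T, missense in ROM2, an activator of the GTPase Rho1). All 5 chromosome XII SNVs of SUP102 changed a protein. The switch interval, between AHP1 and MET17, was 364.5 kb long.

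The other strains with all right-hand SNVs high had few SNVs to place the change. SUP40 had 1 SNV on each side, C234178A at 0.507 outside annotated genes and A783334G at 1.0, synonymous in TMA10. SUP111 had A39299T (missense in FRE6) at 0.463, G163132C (missense in SSK1, a response regulator of the osmotic stress pathway) at 0.439 and G1022969A (synonymous in ECM7) at 1.0. The switch interval of SUP40 was 549.2 kb long. That of SUP111 was 859.8 kb long and reached from SSK1, close to the centromere, almost to the right end.

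SUP54 and SUP126 changed farther to the right, at a distance from the rDNA. SUP54 had left SNVs at 0.544 (G234152A) and 0.477 (C262950G), both outside annotated genes. To the right it had missense SNVs at 0.422 (T755830C, CDC25, the activator of Ras), 0.464 (A762867G, CDC3, a septin gene) and 0.519 (T768589C, EST2, the catalytic subunit of telomerase), followed by 1.0 (C894967T, missense in VAC14, which regulates synthesis of a vacuolar phosphoinositide). SUP126 had no SNV left of the rDNA. On the right it had G633637A at 0.488 (outside annotated genes), T816462A at 0.434 (synonymous in GAS2), C859630A at 0.497 and A859877G at 0.5 (missense and synonymous in SSQ1, a mitochondrial Hsp70 gene), and then A1043140G at 1.0, outside annotated genes. The switch thus lay within 126.4 kb between EST2 and VAC14 in SUP54 and within 183.3 kb right of SSQ1 in SUP126, and neither stretch overlaps the rDNA.

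SUP103 and SUP7 had more than 1 switch. In SUP103 a single high SNV was flanked by intermediate ones on both sides. The left SNVs were at 0.454 (G103444A, synonymous in SPA2) and 0.482 (C362857T, missense in REA1, an ATPase gene of ribosome assembly), the high one at 0.997 (T704011C, missense in YLR278C), and the SNVs farther right at 0.461 (A935751T, missense in UTP21, of the small-subunit processome) and 0.457 (A976739T, outside annotated genes). The return to intermediate values lay within 231.7 kb between YLR278C and UTP21. SUP103 was the only split strain whose last SNV was not high.

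SUP7 had 3 switches among its 7 SNVs. PRP19 carried a missense SNV (G67700T) at 0.489 on the left arm, and T585883A outside annotated genes was at 0.996. They were followed by 3 intermediate SNVs, T638331C at 0.485 (missense in YEF3, translation elongation factor 3), T732303C at 0.486 (missense in YLR302C) and A834309G at 0.495 (outside annotated genes), and by 2 high ones, C920893A at 0.996 (missense in BDF1) and C1026189G at 1.0 (missense in NGK1). BDF1 encodes a bromodomain protein that binds acetylated histones. The high SNV at 585883 stood alone between intermediate ones, with switch intervals of 518.2 kb to its left and 52.4 kb to its right, the shortest of all. The last switch of SUP7 lay within 86.6 kb between 834309 and BDF1.

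At close positions the state could differ between strains. T732303C in YLR302C (SUP7) and A733544T in the neighbouring MET17 (SUP102) were 1241 bp apart, at 0.486 and 1.0. Near the right end, the SNVs of SUP111 in ECM7, SUP7 in NGK1 and SUP74 outside annotated genes lay within 6 kb of each other. All were at 1.0, with successive pairs 3220 and 2197 bp apart. Intermediate strains had SNVs in the same genes at lower values, 0.528 in ECM7 (SUP82) and 0.495 in NGK1 (SUP38).

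In all there were 12 switch intervals, 10 from intermediate to high read from left to right and 2 back. They were 52.4 to 859.8 kb long, with a median of 247.5 kb. Of the 12, 7 spanned the rDNA, 5 lay wholly right of it and 0 left of it, and 1 also spanned the centromere (in SUP7). The 7 that spanned the rDNA had the stretch from 424503 to 507694 in common (83.2 kb), which contains the array because of how these 7 were picked out. No SNV inside the array was available in these strains, so the changes cannot be placed at the rDNA rather than beside it.

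The long gaps across the rDNA bear on that count. Of 8 pairs of neighbouring SNVs that spanned the rDNA, 7 switched, but these pairs were long and covered 3578 kb in all. Of 17 pairs right of the rDNA 5 switched (1734 kb), and of 10 pairs left of it 0 switched (1351 kb). A pair shows at most 1 switch whatever its length, so these counts cannot be compared per length, and all 35 pairs come from strains chosen for having a switch.

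The order of the states was compared with that in the other suppressors. SNVs were present on both sides of the rDNA in 60 suppressors. In 8 of them, all split strains, the left SNVs were all intermediate and the right ones all high (5 strains) or mixed (3 strains). In 48, all intermediate strains, both sides were intermediate, and in 4, all high strains, both sides were high. The opposite order, high on the left with an intermediate SNV on the right, was found in 0 of the 60 suppressors. High SNVs left of the rDNA did exist, but only in the high strains, with 14 of their 30 SNVs.

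**Figure D2:**
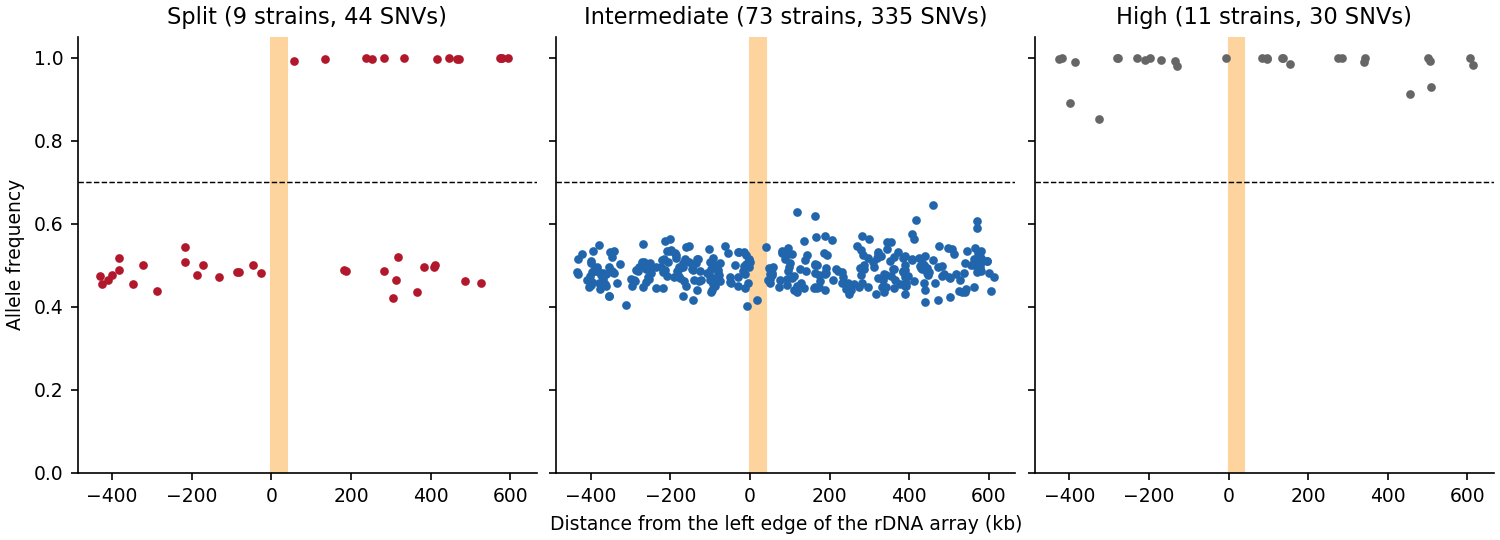
Allele frequency of each chromosome XII SNV against its distance from the left edge of the rDNA array (orange band, kb), in the split strains, the intermediate strains and the high strains. The dashed line marks 0.7. In the split strains the upper points (0.992 to 1.0) start right of the rDNA, while in the high strains they lie on both sides of it.

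The number of chromosome XII SNVs and the level of the intermediate ones were close in split and intermediate strains, though neither was tested. The split strains had 4.89 ± 1.54 chromosome XII SNVs each (SD, n = 9, range 2 to 7), against 4.59 ± 2.70 in the intermediate strains (SD, n = 73, range 1 to 12) and 2.73 ± 2.37 in the high strains (SD, n = 11, range 1 to 9). At least 2 SNVs are needed to be a split strain, which 66 of the 73 intermediate and 6 of the 11 high strains also had. The mean intermediate allele frequency per strain was 0.482 ± 0.0166 in split strains (SD, n = 9) and 0.490 ± 0.0279 in intermediate strains (SD, n = 73). The share of SNVs right of the rDNA was 59.1% of 44 in split strains and 55.5% of 335 in intermediate strains.

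High and intermediate SNVs of the split strains were also described by what they changed. Of the 14 high SNVs, 6 were missense (in BDF1, NGK1, VAC14, MET17, ROM2 and YLR278C), 3 synonymous, 4 outside annotated genes and 1 in a tRNA gene. Of the 30 intermediate SNVs, 18 were missense, 4 synonymous and 8 outside annotated genes. Neither kind included a nonsense SNV. Transitions made up 7 of the 14 high and 18 of the 30 intermediate SNVs.

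The same rule was applied to every other chromosome. The number of suppressors split on a chromosome was 9 for chromosome XII and between 0 and 8 for the other 15, with chromosome IV at 8. As a share of the suppressors with at least 2 SNVs on the chromosome this was 11.1% for chromosome XII and between 0% and 16.2% for the others, the highest being chromosome VIII (6 of 37). By number alone, chromosome XII was therefore not set apart. The makeup did differ, with each SNV counted once per strain. On chromosome XII 365 of 409 SNVs were intermediate and high ones were the minority. On chromosome IV, for example, 17 of 396 were intermediate. The strains differed too, as none of those split on chromosomes IV or VIII was among the 9 split on chromosome XII. Outside chromosome XII, the intermediate strains SUP124, SUP23 and SUP47 had 41, 22 and 12 intermediate SNVs. How many splits on other chromosomes came from such strains was not counted.

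**Figure D3:**
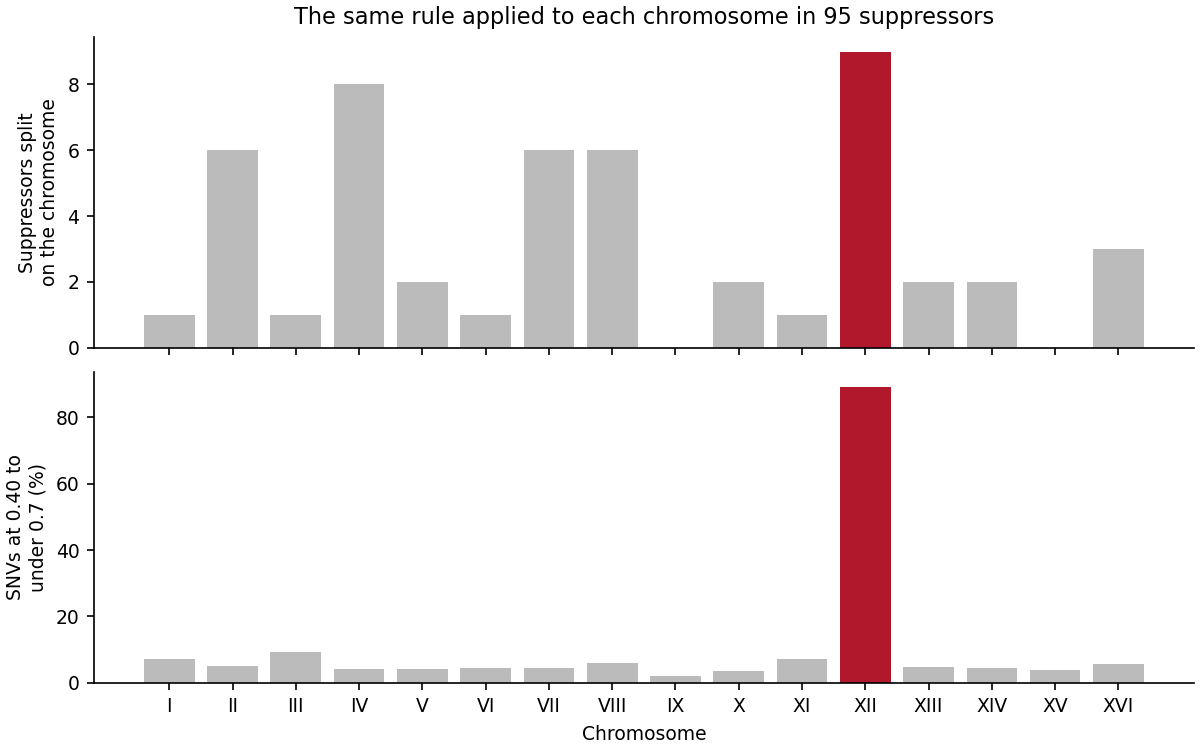
The upper panel gives, for each chromosome, the number of suppressors with at least 1 SNV at 0.7 or above and at least 1 at 0.40 to under 0.7 on it, and the lower panel the percent of its SNVs at 0.40 to under 0.7. Chromosome XII (red) has 9 such suppressors, close to chromosome IV with 8, but stands far above all others in the lower panel.

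On the chromosomes that the choice of strains did not use, the split strains were nearly free of intermediate SNVs. Of their 323 SNVs outside chromosome XII, 3 (0.929%) were intermediate and the median allele frequency was 1.0. Of the split strains, 7 had 0 such SNVs. SUP102 had 2, A8207G in GEX1 on chromosome III (0.482) and T207378G in YPK1 on chromosome XI (0.432), both synonymous. SUP103 had 1, a missense SNV in the silencing gene SIR1 on chromosome XI (A641945G, 0.605). This makes SUP103 the only split strain that was also split on another chromosome.

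In the intermediate strains, 5.53% of 2097 SNVs outside chromosome XII were intermediate, and in the high strains 3 of 270 were. The median number of such SNVs per strain was 0 in split, intermediate and high strains alike. The mean was 0.333 ± 0.707 per split strain (SD, n = 9) and 1.59 ± 5.56 per intermediate strain (SD, n = 73), a difference of -1.26 (exact permutation test over strains, two-sided, p = 0.435, adjusted p = 0.58, not past the threshold of 0.05). The intermediate strains SUP124, SUP23 and SUP47 stood apart, with 41, 22 and 12 intermediate SNVs, and the next had 5. Without these 3 strains the difference was -0.252 (two-sided exact permutation test, p = 0.525, adjusted p = 0.701), so that most of it came from them.

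The number of SNVs outside chromosome XII was 38 in SUP7, 45 in SUP20, 36 in SUP40, 40 each in SUP54, SUP74 and SUP103, 15 in SUP102, 43 in SUP111 and 26 in SUP126. The mean was 35.9 ± 9.51 per split strain (SD, n = 9) and 28.7 ± 9.41 per intermediate strain (SD, n = 73, range 8 to 49). All 9 values lie within the range of the intermediate strains. The difference of 7.16 SNVs per strain did not pass after adjustment over the 4 comparisons made between these groups (two-sided exact permutation test, p = 0.0352, adjusted p = 0.117). The test treats related strains as exchangeable. Exchanged only among strains with the same common SNVs (in IRA1, SDT1, YKR005C, GUD1 or none of these), the difference was 7.01 (two-sided exact permutation test, adjusted p = 0.104). Without SUP102, the split strain with the lowest number, the difference was 9.77 (two-sided exact permutation test, adjusted p = 0.0203). Leaving out any other single split strain gave no pass (two-sided exact permutation tests, adjusted p up to 0.22).

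Nonsilent SNVs at 0.7 or above outside chromosome XII, which alter the encoded protein, numbered 17.6 ± 4.77 per split strain (SD, n = 9, range 8 to 25) and 13.5 ± 6.0 per intermediate strain (SD, n = 73, range 1 to 27). The difference of 4.02 did not pass the test (two-sided exact permutation test, p = 0.0585, adjusted p = 0.117). Without SUP102, again the lowest split strain, it was 5.22 (two-sided exact permutation test, adjusted p = 0.0369). Leaving out any other single split strain gave no pass here either (two-sided exact permutation tests, adjusted p up to 0.333). The high strains had 24.5 ± 9.50 SNVs outside chromosome XII, 12.8 ± 6.15 of them nonsilent at 0.7 or above (SD, n = 11), and were not tested.

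**Figure D4:**
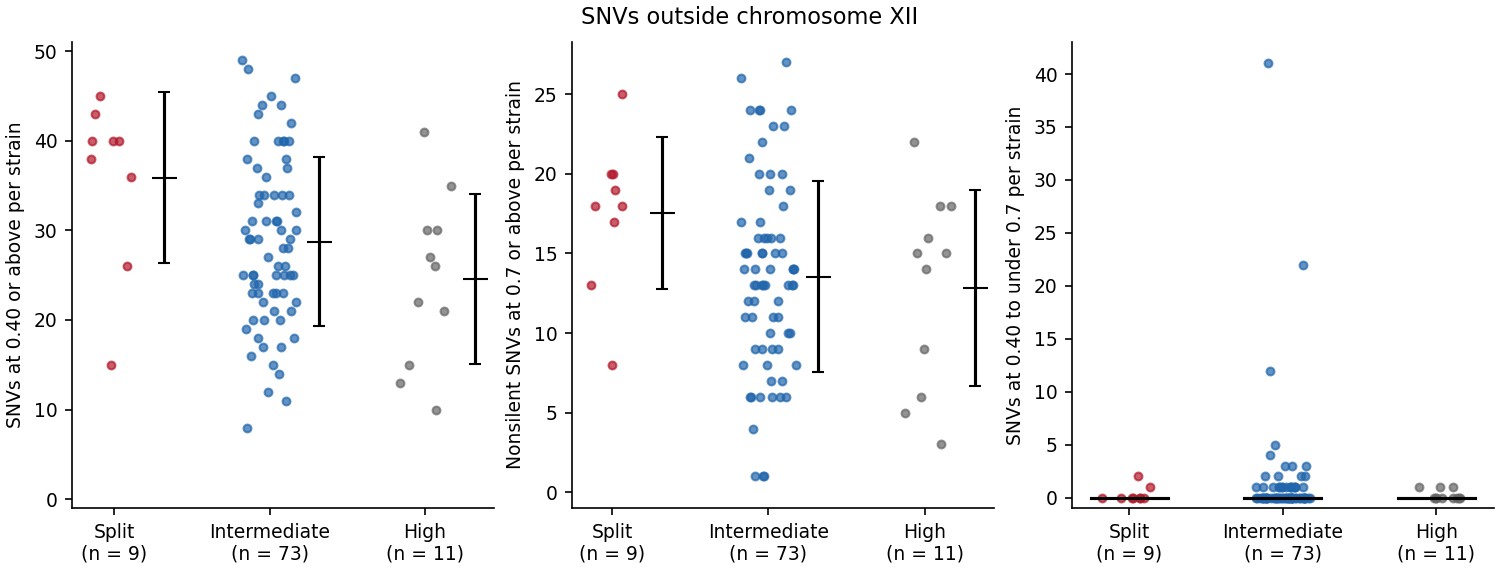
Numbers of SNVs outside chromosome XII per strain, for split, intermediate and high strains (1 point per strain). The left panel counts SNVs at 0.40 or above and the middle panel nonsilent SNVs at 0.7 or above, each with mean and SD in black. The right panel counts SNVs at 0.40 to under 0.7, with the median as a black line. The split strains lie within the range of the intermediate strains, and 3 intermediate strains stand apart in the right panel, at 41, 22 and 12.

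The split strains did not come from a single group of related isolates. Of the 9, 5 (SUP74, SUP102, SUP103, SUP111 and SUP126) carried the 3 SNVs that 49 suppressors have in common, on chromosomes II, IV (GUD1) and VII (CHC1). Among the intermediate strains 39 of 73 carried them, and the shares of 55.6% and 53.4% were not told apart (Fisher's exact test over strains, two-sided, p = 1, adjusted p = 1). SUP7 and SUP20 belonged to the 9 suppressors with a common missense SNV in IRA1, a negative regulator of Ras, which were 2 split, 6 intermediate and 1 high strain. SUP40 was the only split strain among the 9 with a common SDT1 SNV (7 intermediate, 1 high), and SUP126 the only one among the 6 with a common YKR005C SNV (4 intermediate, 1 high). SUP54 had no SNV in common with any other suppressor.

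Strains with common SNVs thus differed in the state of chromosome XII. SUP40 and SUP35, an intermediate strain, both carried the same missense SNV in DCP2 (T405341G, chromosome XIV, 1.0 in SUP40), which encodes the catalytic subunit of the mRNA decapping enzyme. No chromosome XII SNV of a split strain was found in another suppressor.

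Nonsilent SNVs in genes of homologous recombination, rDNA stability and chromosome segregation were looked up in the split strains. Of 70 such genes, 2 (2.86%) carried one at an allele frequency of 0.40 or above, beside 2.84% of all 6021 protein-coding genes. They were IPL1 in SUP54 (G157586A, chromosome XVI, missense, 1.0), the Aurora kinase that corrects the attachment of chromosomes to the spindle, and TOF2 in SUP103 (T459594C, chromosome XI, missense, 1.0), a nucleolar protein of rDNA silencing. The share of the list was that of all genes, and 7 of the 9 split strains had no nonsilent SNV in it. In the intermediate strains 14 of the 70 genes (20.0%) carried one, beside 15.9% of all genes, and in the high strains 2 (2.86%) did, beside 2.23%.

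Of 14 genes in the suppressor pathways that the study names, 3 (21.4%) carried a nonsilent SNV in a split strain, also beside 2.84% of all genes. RPH1 and RXT2 of this list were first found in other strains of the study, but others were named from the same 95 suppressors, so this share is not independent evidence. RPH1, a histone demethylase gene, had a nonsense SNV in SUP7 (A523712T, chromosome V, 0.994), and the others were DCP2 in SUP40 and SIR1 in SUP103 given above. In the intermediate strains 10 of the 14 genes (71.4%) carried one, beside 15.9% of all genes. In the high strains 1 (7.14%) did, beside 2.23%. These shares pool groups of unequal size. Counted by strain, 33.3% of the 9 split, 23.3% of the 73 intermediate and 18.2% of the 11 high strains carried one, which was not tested.

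The split strains had 6 nonsense SNVs at 0.7 or above outside chromosome XII. Besides RPH1, SUP7 had one in ECM4 on chromosome XI (T582169A, 0.996). SUP20 had nonsense SNVs in SPO74 on chromosome VII (T185259A, 0.993) and in URN1 on chromosome XVI (A833267C, 1.0). SUP74 had one in CRF1, a corepressor gene of ribosomal protein transcription, on chromosome IV (C912309T, 1.0), and SUP111 one in BPH1 on chromosome III (T180363A, 1.0). The other 5 split strains had none. The share of nonsense SNVs in the other suppressors is not given here, so the count of 6 cannot be read as many or few.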

How the data were processed

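For each of the 95 suppressors and for YJT75, genomic DNA went into 1 library. Per the paper's methods, the authors used Novoalign 2.07.14 (sacCer2), Picard 1.81 to remove duplicates from 101-base reads, deepSNV for base counts at quality 30 or above, and their own scripts to call SNVs over all libraries together. They kept SNVs with an allele count of at least 20 and an allele frequency of at least 0.40 in a suppressor and under 0.1 in the control, so SNVs under 0.40 everywhere are not seen here. The deposited values are allele frequencies, with 10 in place of 1.0 (1814 cells, read as 1). The 2 tables of other strains were not used.

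The members and gene lists were chosen with earlier results of these data known. Genes named are those beside a switch, with a nonsilent high or a nonsense SNV, or in a list. The other chromosome XII SNVs and the shared SNVs are also named, chosen after their values were seen. Names came from the R64 annotation of RefSeq (29 of 30 gene identifiers matched), of which no position was used. Strains were compared by two-sided exact permutation tests of the difference in mean, tested on simulated data, and by Fisher's exact test, with Benjamini-Hochberg adjustment over 4 comparisons (Python 3.11.15 with scipy 1.17.1, numpy 2.4.6 and pandas 2.3.3; plots with matplotlib 3.10.9). Alternatives were other minimum allele frequencies, SNVs found in 1 suppressor, intermediate strains with at least 2 chromosome XII SNVs and leaving out each split strain. Those restricted to 1 side of the rDNA, to intermediate strains with SNVs on both sides of it, or without SUP23, SUP47 and SUP124 were chosen after seeing the data, as was the test within groups of strains with the same common SNVs.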

Additional observations from a re-analysis of the deposited data

Results flagged for a closer look

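In the 9 split strains, 6 measures were checked for a strain far from the others. For continuous values chance flags about 1 in 20 such groups, a rate that does not hold for tied whole numbers. SUP7 had 3 switch intervals on chromosome XII, against 2 in SUP103 and 1 in each of the other 7 split strains. SUP102 had 2 intermediate SNVs outside chromosome XII, against 1 in SUP103 and 0 in each of the other 7. In both cases the gap to the next strain was 0.5 of the whole range, beside a critical value of 0.493. Both measures are small whole numbers with 7 tied strains, so neither flag can be read as a test result. The switch intervals were also counted from the allele frequencies that chose the strains.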

How the results depend on the processing

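With a high minimum of 0.8 and with SNVs found in 1 suppressor only, the number of split strains was 9 and of switch intervals 12, as reported. At 0.9 SUP46 joined, whose chromosome XII SNVs were at 0.892 to 0.929. At 0.6 there were 14 split strains with 19 switch intervals, because single SNVs at 0.606 to 0.645 in SUP9, SUP45, SUP47, SUP69 and SUP112 then counted as high. Among SNVs left of the rDNA alone 0 strains were split, and right of it 4 were (SUP7, SUP54, SUP103 and SUP126). At 0.6 the differences between split and intermediate strains were 6.45 SNVs and 4.01 nonsilent SNVs outside chromosome XII (two-sided exact permutation tests, adjusted p = 0.0441 each), past the threshold. Leaving out each split strain in turn gave 6.02 to 9.77 SNVs, 3.09 to 5.22 nonsilent SNVs and -1.46 to -1.21 intermediate SNVs, and only without SUP102 did the first 2 pass. Over all alternatives the adjusted p of the first was 0.0203 to 0.32 and of the second 0.0369 to 0.333 (exact permutation tests). The difference in the share of strains with the 3 common SNVs, 2.13 percentage points, was -13.0 at a minimum of 0.6, -4.05 at 0.9, between -3.43 and 9.08 without single strains, 7.07 against intermediate strains with at least 2 chromosome XII SNVs and 11.8 against those with SNVs on both sides of the rDNA, so it is poorly determined with 9 split strains. It could not be computed from SNVs found in 1 suppressor. Exchanging only strains with the same common SNVs (5 groups) gave 7.01 SNVs, 3.84 nonsilent and -1.36 intermediate SNVs (two-sided exact permutation tests, adjusted p = 0.104, 0.107 and 0.392). No paired analysis was possible because no label pairs a split with an intermediate strain. The depth of single values is unknown, and the few SNVs per strain limit how closely a switch can be placed.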

Other observations

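Some chromosome XII SNVs of the split strains lay close together, as found after their values were seen. SUP7 and SUP20 each had an SNV in PRP19, 180 bp apart, at 0.489 and 0.518. SUP54 and SUP40 had SNVs 26 bp apart outside annotated genes (G234152A and C234178A), at 0.544 and 0.507. Within SUP126 both SSQ1 SNVs were 247 bp apart, at 0.497 and 0.5.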
